A study of Sus scrofa with 16 samples.

Results

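The liver of pigs fed raw potato starch (RPS) was compared with the liver of pigs fed corn starch (CS). The members are the arrays whose titles name liver, 4 from the CS diet and 4 from the RPS diet, which are 8 of the 16 arrays of the series. The other 8 arrays hold colonic mucosa. All animals were Duroc × Landrace × Large White castrated males, and each porcine oligonucleotide array received Cy3-labelled cRNA amplified from the total RNA of 1 animal. Feeding began at 70 days of age and lasted 100 days in 2 phases of 50 days each, and the labels give an age of 170 days. Both diets were based on corn and soybean meal with free access to feed, and per the study's methods feed was withheld from the pigs before slaughter. Purified corn starch in the CS diet was replaced by purified raw potato starch in the RPS diet, at 230 g per kg of feed in the growing phase and 280 g per kg in the finishing phase, so that the pigs of both diets ate purified starch. How the liver samples were cut is not given in the sources used here, and the tissue is bulk liver, in which fewer cells of a type and less RNA per cell cannot be told apart.

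Raw potato starch is a resistant starch. Much of it escapes digestion in the small intestine and is fermented in the hindgut to short-chain fatty acids, which reach the liver through the portal vein. The liver makes and stores glucose and fat, disposes of amino acid nitrogen as urea, secretes most plasma proteins, and clears drugs and bacterial products from the blood. Hepatocytes do most of this work, beside resident macrophages (Kupffer cells), sinusoidal endothelium, stellate cells and bile duct cells.

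A probe was kept where the scanner software called it well above background on all 4 arrays of at least 1 diet, and 26461 probes were kept. Of these, 24978 passed on both diets, 802 passed through the CS arrays alone and 681 through the RPS arrays alone. Values are log2 signals after quantile normalization by the authors, and a level is compared between diets only within a probe. A probe is said to have risen or fallen where the unadjusted p of limma's moderated test was below 0.05 and the fold change was above 1.5. The share of the array's probes past that background call was 61.1% to 65.9% per array, and no spot was saturated. All 4 CS arrays were on 1 slide and all 4 RPS arrays on another, each with its own scan, and in every comparison the part of the slide and that of the diet cannot be told apart.

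The labelled tissue was borne out by its markers. All 8 hepatocyte markers with a kept probe, of 14 listed, were well above background on all 8 arrays. Among them were ALB (serum albumin), at 18.88 to 19.00 on the CS arrays and 18.96 to 19.05 on the RPS arrays, and TF (transferrin, the iron carrier of plasma), at 18.03 to 18.26 on all 8. The log2 difference, RPS minus CS, was 0.01 ± 0.11 (SE) for TF at this probe. The 4 kept TF probes ranged from -0.33 to 0.01, and none passed both thresholds. The ALB probe lay near the top of the scale, where quantile normalization gives nearly the same values to every array, so a difference there could not be measured. The summed linear signal of the 8 markers was 1767000 to 1868500 on CS and 1717000 to 1795100 on RPS arrays, and none of the 8 passed both thresholds. Most of that sum came from ALB, TF and other probes near the top of the scale, so it does not measure the amount of hepatocytes.

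Across the liver, 917 probes passed both thresholds, which is 3.47% of the kept probes. Of these, 440 were higher with RPS (1.66% of kept probes) and 477 were lower (1.8%). After Benjamini-Hochberg adjustment over all kept probes, 0 probes (0%) had an adjusted p below 0.05 in limma, while 2352 had an unadjusted p below 0.05 where 1323.1 would be expected by chance. The smallest adjusted p was 0.0865. Every gene described as rising or falling therefore rests on an unadjusted p, and the adjusted p is given beside the genes that lead each group. The 8 arrays can give an exact permutation p no lower than 0.0286, which is reached when the diets do not overlap. The 4 CS and 4 RPS values did not overlap at 1402 kept probes (5.3%), 751 of them higher with RPS (2.84%) and 651 lower (2.46%). Among the 917, 434 (47.3%) did not overlap. The 917 were picked on the same values, so a lack of overlap adds no separate support for a gene that passed. Of the 917 probes, 655 passed the background call on all 8 arrays, 143 were kept through the CS arrays alone and 119 through the RPS arrays alone. A gene symbol was available for 311 of the 917, and 160 of these rose.

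**Figure D1:**
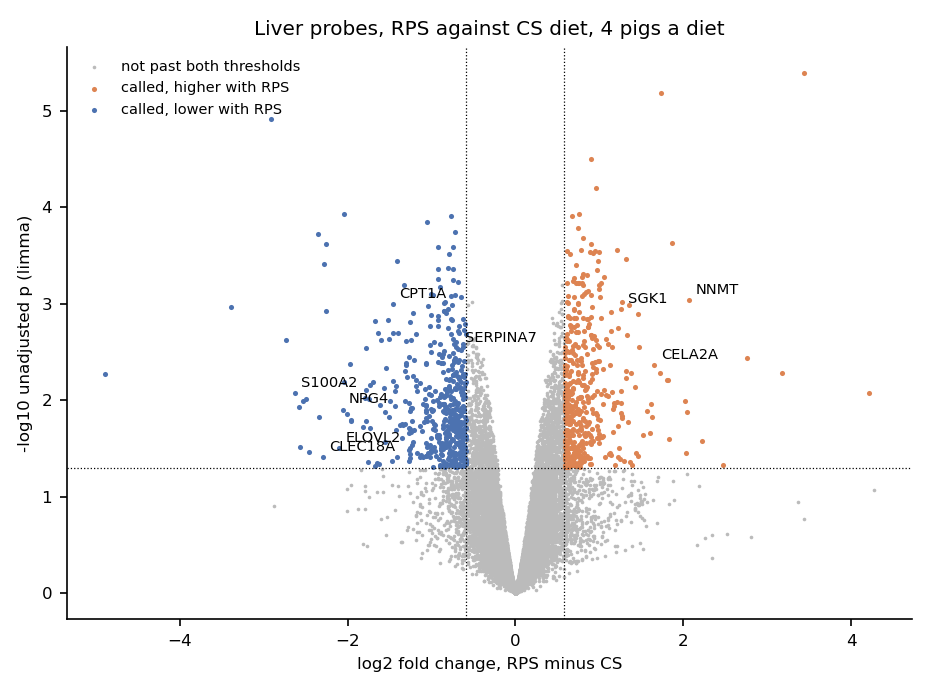
Each dot is 1 of 26461 kept probes, with the log2 fold change, RPS minus CS, on the horizontal axis and -log10 of limma's unadjusted p on the vertical axis (n = 4 pigs a diet). Dotted lines mark a fold change of 1.5 and a p of 0.05. The 440 probes in orange were higher and the 477 in blue lower with RPS, and both sides reach p values below 0.001.

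The 3 probes with the smallest p carry no gene name in the annotation used here, so the first 30 of their 60 bases, as listed by the scanner software, are given to identify them.
A_72_P767648: acttcatactccgagagacataggagtttt
A_72_P102916: cataactctccactgcttcctttgggcctc
A_72_P006701: atcaagacagcatatgagatgatcgcttgt
Probe A_72_P102916 read 7.65, 7.75, 8.28 and 7.5 on the CS arrays and 9.50, 9.36, 9.73 and 9.51 on the RPS arrays. The diets were well apart, with a rise of 3.32-fold (log2 1.73 ± 0.18 SE, adjusted p = 0.0865 by limma). The other two were measured on 1 diet only. A_72_P767648 was well above background on all 4 RPS arrays (4.26 to 5.60) and on none of the CS arrays, and was at least 2.88-fold higher with RPS. A_72_P006701 was well above background on all 4 CS arrays (3.57 to 4.4) and on none of the RPS arrays, and was at least 1.59-fold lower with RPS. These bounds set the bright diet against the lowest signal that was well above background on each dim array. With the scanner signals corrected by normexp, a model that separates signal from background, the log2 differences were 0.40 for A_72_P767648 and -0.25 for A_72_P006701, and neither passed.

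Among probes with a gene symbol and signal on all 8 arrays, the largest rise was that of NNMT (nicotinamide N-methyltransferase, which methylates nicotinamide in hepatocytes). It read 7.55, 8.17, 9.02 and 9.03 on CS and 9.87, 11.15, 11.03 and 9.99 on RPS arrays. Every RPS pig was above every CS pig, and the rise was 4.20-fold (log2 2.07 ± 0.42 SE, adjusted p = 0.320). SGK1, a kinase induced by glucocorticoids and osmotic stress, read 10.60, 10.43, 10.25 and 10.59 on CS against 11.28, 11.89, 12.48 and 11.28 on RPS. The CS pigs lay close together and all RPS pigs lay above them, a rise of 2.40-fold (log2 1.26 ± 0.26 SE, adjusted p = 0.320).

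The other leading rises covered unrelated functions. CELA2A (a pancreatic-type elastase) rose 3.15-fold, SFXN3 (a mitochondrial carrier of the sideroflexin family) 2.96-fold, CA11 (a carbonic anhydrase-related protein) 2.49-fold and SLC26A6 (an anion exchanger) 2.32-fold, all with no overlap between diets. CITED1 (a transcriptional co-regulator, 3.03-fold), MTMR7 (a phosphoinositide phosphatase, 2.41-fold) and RGS5 (a regulator of G-protein signalling found in pericytes, 2.38-fold) rose with overlapping diets. CITED1 and RGS5 each lost the call without any of several arrays. With each of the 8 arrays left out in turn, the log2 difference ranged from 1.29 to 2.06 for CITED1 (p up to 0.0621) and from 0.93 to 1.84 for RGS5 (p up to 0.109). Under normexp the log2 rises of CELA2A, CITED1 and CA11 were 0.77, 0.87 and 0.63 and passed, and that of SFXN3 was 1.04 without RPS replicate 1. RTN2 (reticulon 2, a protein of the endoplasmic reticulum) rose 2.56-fold at its named probe, and its probes are compared further on.

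The largest fall at a named probe was that of S100A2, a small calcium-binding protein of epithelia. It read 10.90, 7.55, 7.29 and 9.92 on CS arrays and 6.96, 6.15, 5.69 and 6.36 on RPS arrays. The CS pigs spread over several log2 units and the RPS pigs lay below all of them, a fall of 6.18-fold (log2 -2.63 ± 0.78 SE, adjusted p = 0.414). COL8A1 (a chain of type VIII collagen) read 8.64, 7.73, 7.32 and 7.58 on CS and 6.58, 6.86, 5.89 and 5.84 on RPS, again without overlap, and fell 2.87-fold (log2 -1.52 ± 0.33 SE, adjusted p = 0.320). KLF11, a transcription factor of the Krüppel-like family, fell 2.11-fold with no overlap (log2 -1.08 ± 0.33 SE), and of its other two probes 1 passed (-1.0) and 1 did not (-0.50). Under normexp COL8A1 was at -0.80 and passed, while KLF11 was at -0.31 and did not.

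Other large falls were less even. CLEC18A (a C-type lectin) read 8.15, 10.34, 10.82 and 11.35 on CS and 6.98, 7.39, 6.65 and 10.47 on RPS, so RPS replicate 4 lay within the CS range. Its fall of 4.90-fold ranged from log2 -1.88 to -3.16 when 1 array was left out, with p up to 0.101. ALOX12 (a lipoxygenase of arachidonic acid, 2.94-fold) and WFDC2 (a secreted protease inhibitor, 2.20-fold) also fell with overlapping diets. Both lost the call without any of several arrays, with p up to 0.0715 and 0.103, and under normexp ALOX12 was at log2 -0.93 and passed. MMP9 (a matrix metalloproteinase carried by neutrophils) fell 2.20-fold at the probe A_72_P440951, where RPS replicate 4 at 6.39 stood above the other RPS pigs at 5.33 to 5.36. A second and brighter MMP9 probe differed by -0.42 ± 0.16 (SE) and did not pass the fold threshold. Under normexp the first was at -0.46 and did not pass either.

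**Figure D2:**
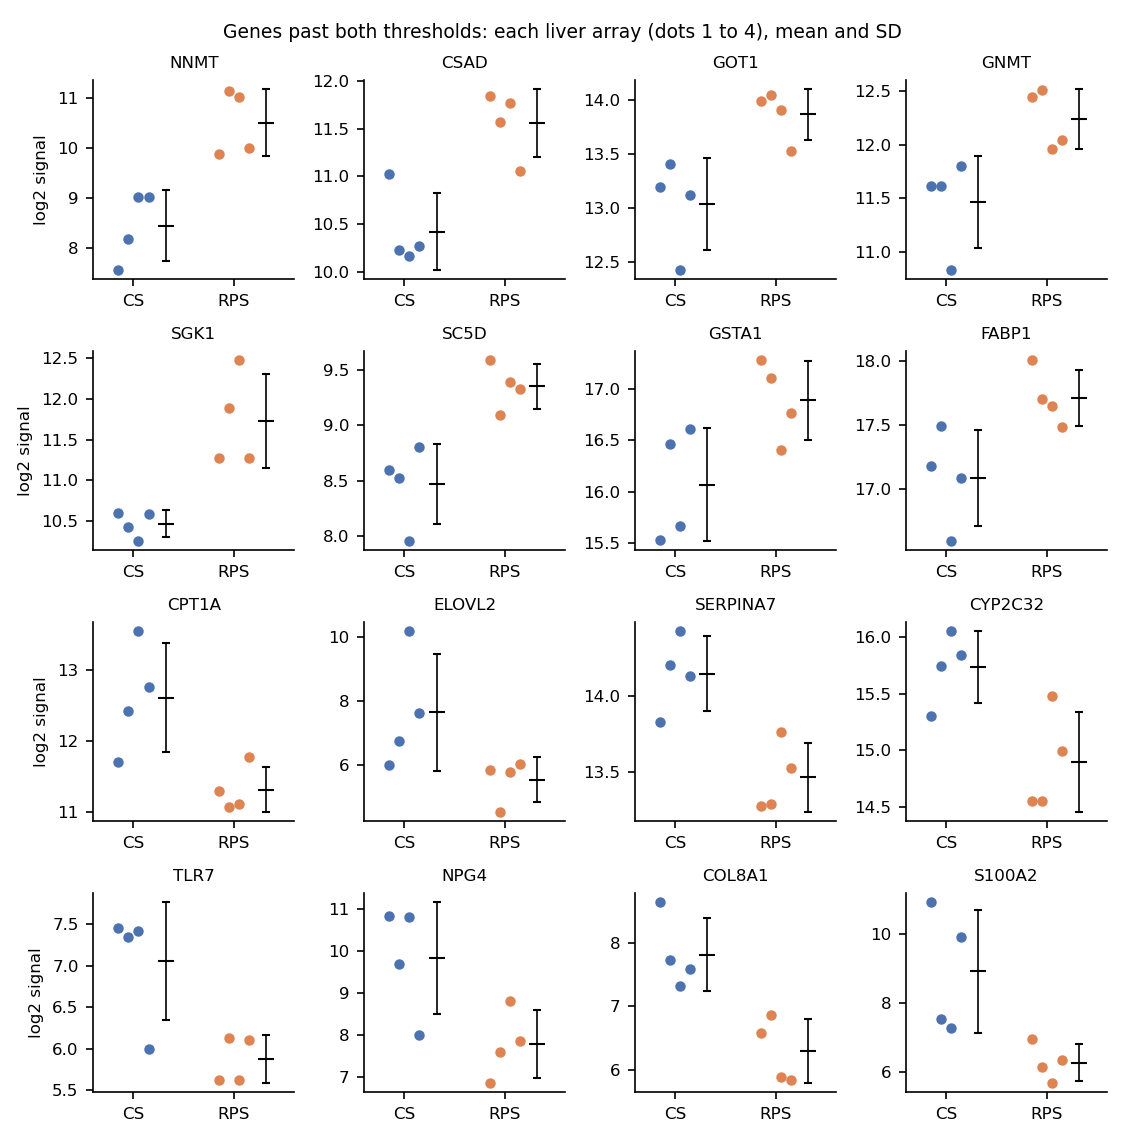
Log2 signal of 16 genes that passed both thresholds, 1 panel a gene, with a dot for each of the 4 CS (blue) and 4 RPS (orange) pigs in order of replicate number and the mean with SD beside them. NNMT, CSAD, GOT1, GNMT, SGK1, SC5D, SERPINA7, COL8A1 and S100A2 show no overlap between diets, while a pig of 1 diet lies within the range of the other for GSTA1, FABP1, CPT1A, ELOVL2, CYP2C32, TLR7 and NPG4. The genes were picked on these same values, and 47.3% of all probes past both thresholds show no overlap. A brighter NNMT probe, not shown, overlapped between diets and did not pass.

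Gene function was followed with 22 lists of liver metabolism, secreted proteins, detoxification, immunity and cell state, each gene represented by its brightest kept probe. The lists were written with earlier results of these data known, so their shares are a description. Over all 5338 genes with a kept probe, 175 passed both thresholds (3.28%), 88 higher (1.65%) and 87 lower (1.63%), and the median log2 difference was -0.01. The 22 lists held 593 such genes, of which 13 rose and 8 fell (3.54%), a share near that of all genes. By class, 10 of 188 genes of liver metabolism passed (5.32%), 2 of 140 secreted proteins (1.43%), 6 of 114 detoxification genes (5.26%) and 2 of 117 immune genes (1.71%).

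**Figure D3:**
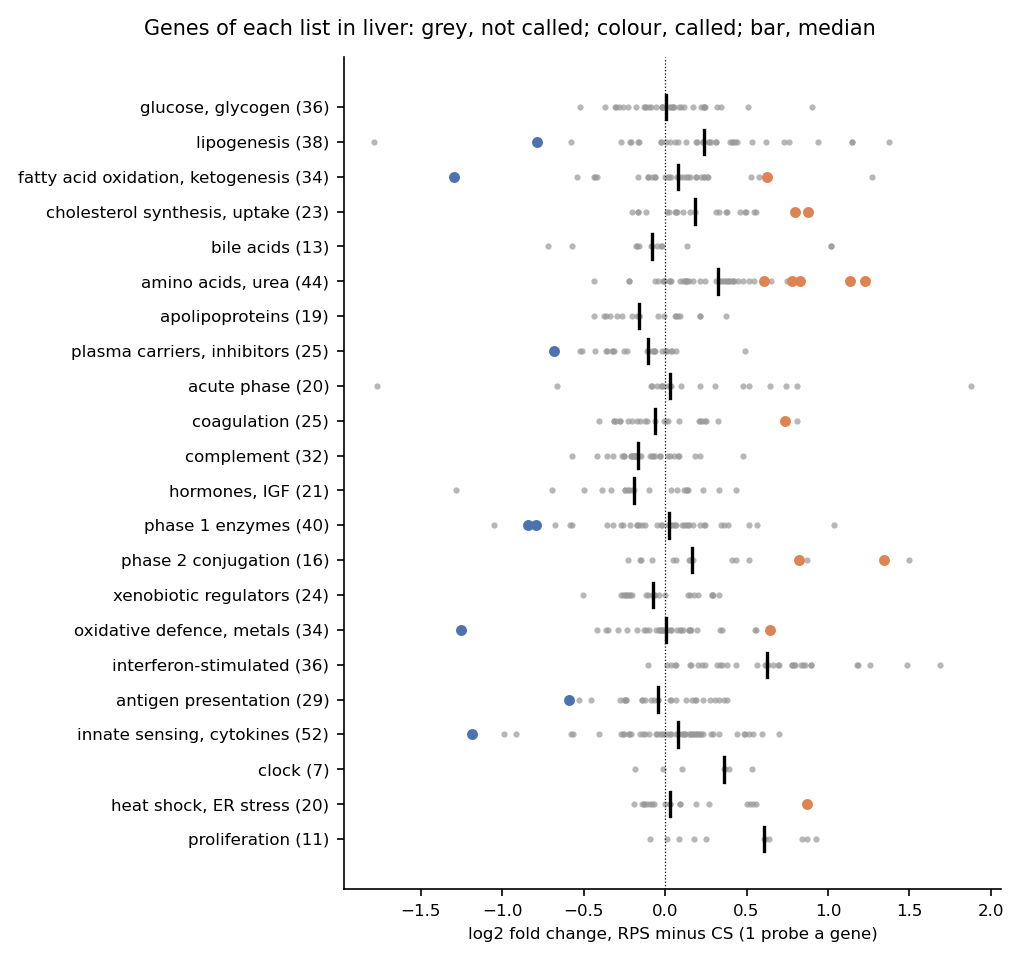
Log2 fold change, RPS minus CS, of every gene of the 22 lists at its brightest kept probe, 1 row a list with the number of genes in brackets. Grey dots did not pass both thresholds, orange dots rose, blue dots fell, and the black bar is the list's median. The amino acid and urea list holds 5 orange dots, and the interferon-stimulated and proliferation lists have medians of 0.62 and 0.61 with no coloured dot.

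Genes of amino acid breakdown and the urea cycle held the most rises of any list in number, 5 of 44 (11.4%), and none fell. By share, the conjugation list with 2 rises of 16 stood slightly higher (12.5%). Of the 44, 36 had a higher mean with RPS, against 2560 of all 5338 genes, and the list's median was 0.32. The 5 were ARG2, CSAD, GOT1, GNMT and HGD. CSAD, the decarboxylase of cysteine sulfinate on the route to taurine, read 11.02, 10.23, 10.17 and 10.27 on CS and 11.84, 11.57, 11.77 and 11.05 on RPS. All RPS pigs lay above all CS pigs, by a small margin for RPS replicate 4, and the rise was 2.20-fold (log2 1.13 ± 0.24 SE, adjusted p = 0.320). GOT1, the cytosolic aspartate aminotransferase, read 13.20, 13.41, 12.43 and 13.12 on CS and 13.99, 14.05, 13.91 and 13.53 on RPS.

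GOT1 thus rose 1.78-fold without overlap (log2 0.83 ± 0.22 SE, adjusted p = 0.376). GNMT, which methylates glycine and disposes of surplus S-adenosylmethionine, rose 1.71-fold without overlap (log2 0.78 ± 0.23 SE, adjusted p = 0.418). Without CS replicate 3 its log2 difference was 0.57, under the fold threshold. ARG2, the mitochondrial arginase, read 8.32, 8.66, 7.28 and 9.63 on CS and 9.87, 9.86, 9.63 and 9.43 on RPS at its brightest probe. The RPS pigs lay close together and 1 CS pig reached their range, with a rise of 2.34-fold (log2 1.22 ± 0.42 SE, adjusted p = 0.452). HGD (homogentisate dioxygenase of tyrosine breakdown) rose by log2 0.60 ± 0.24 (SE, adjusted p = 0.518) and lost the call without any of 5 arrays, with p up to 0.0888.

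The urea cycle enzymes with a kept probe did not pass both thresholds. ARG1, the liver arginase, had a log2 difference of 0.75 ± 0.41 (SE), ASS1, which joins citrulline and aspartate, 0.35 ± 0.23, and OTC, which makes citrulline, 0.13 ± 0.27. NAGS, which makes the activator of the cycle, differed by 0.54 ± 0.21 and CTH, which splits cystathionine to cysteine, by 0.48 ± 0.17. NAGS and CTH had adjusted p of 0.513 and 0.473 and stayed under a 1.5-fold change. The list's per-array median, with each probe centred on its mean over the 8 arrays, was -0.21, -0.06, -0.32 and 0.06 on CS and 0.18, 0.20, 0.09 and 0.02 on RPS. CS replicate 3 held the lowest value of 20 of the 44 genes. The list's median difference was 0.21 to 0.30 when any 1 array was left out.

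Fat metabolism moved unevenly. In the list of fatty acid oxidation and ketogenesis, CPT1A fell and FABP1 rose among 34 genes, with a median of 0.08. CPT1A, the carnitine palmitoyltransferase that admits long-chain fatty acids to mitochondria, read 11.71, 12.42, 13.54 and 12.76 on CS and 11.29, 11.07, 11.12 and 11.77 on RPS at its brightest probe. Only RPS replicate 4 reached above the lowest CS pig, and the fall was 2.46-fold (log2 -1.30 ± 0.36 SE, adjusted p = 0.383). FABP1, the fatty acid carrier of hepatocyte cytosol, read 17.17, 17.49, 16.59 and 17.08 on CS and 18, 17.70, 17.64 and 17.48 on RPS. RPS replicate 4 lay just below the highest CS pig, and the rise was 1.54-fold (log2 0.62 ± 0.20 SE, adjusted p = 0.426).

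FABP1 was under the fold threshold without CS replicate 3 (log2 0.46) and also without RPS replicate 1 (0.53). FGF21, a fasting hormone of the liver, was at 8.66 in CS replicate 3 and between 3.67 and 5.97 in the other 7 pigs.

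In the lipogenesis list, 28 of 38 genes had a higher mean with RPS and the median was 0.24, but no gene rose past both thresholds and SCD5 fell. FASN (fatty acid synthase) read 15.40, 16.66, 13.53 and 16.43 on CS and 17.66, 16.29, 16.14 and 16.51 on RPS. SCD (stearoyl-CoA desaturase) read 15.16, 16.10, 12.52 and 15.26 on CS and 17.03, 15.38, 16.50 and 15.63 on RPS. For both, CS replicate 3 was the lowest pig and RPS replicate 1 the highest, and the log2 differences of 1.15 ± 0.67 and 1.37 ± 0.73 (SE) had adjusted p of 0.669 and 0.628. Across the list, RPS replicate 1 held the highest value of 17 genes and CS replicate 3 the lowest of 16. SREBF1, which drives transcription of these enzymes, did not overlap between diets but differed by only log2 0.27 ± 0.11 (SE, adjusted p = 0.532).

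SCD5, a second stearoyl-CoA desaturase, fell by 0.79 ± 0.32 (SE) on the log2 scale (adjusted p = 0.532), and p reached 0.0983 when 1 array was left out. Its log2 difference was -0.51 without CS replicate 3 and -0.35 under normexp, and neither passed. ELOVL2, the elongase of long polyunsaturated fatty acids, fell past both thresholds at its probe A_72_P571639, which read 5.99, 6.77, 10.19 and 7.64 on CS and 5.86, 4.52, 5.78 and 6.03 on RPS. CS replicate 3 stood far above the rest, and the log2 difference of -2.10 ± 0.82 (SE) became -1.25 without it, while p reached 0.0820 when other arrays were left out. Under normexp it was -1.23 and did not pass. At its brightest probe the difference of -1.79 ± 0.93 (SE) did not pass.

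Of 23 genes of cholesterol synthesis and uptake, 19 had a higher mean with RPS, 2 rose and none fell, with a median of 0.18. SC5D, an enzyme late in sterol synthesis, read 8.59, 8.53, 7.96 and 8.80 on CS and 9.59, 9.09, 9.39 and 9.33 on RPS. All RPS pigs lay above all CS pigs, and the rise was 1.84-fold (log2 0.88 ± 0.20 SE, adjusted p = 0.322). INSIG1, a sterol-regulated brake on the SREBP pathway, read 10.13, 10.87, 10.02 and 11.12 on CS and 11.61, 11.75, 10.97 and 10.99 on RPS and rose 1.73-fold with overlap (log2 0.79 ± 0.30 SE, adjusted p = 0.493), with p up to 0.0721 when 1 array was left out. HSD17B7, an enzyme of the same route, did not overlap between diets but was under 1.5-fold (log2 0.56 ± 0.17 SE, adjusted p = 0.422). The list's median ranged from 0.09 without RPS replicate 1 to 0.41 without RPS replicate 3, and was also low without RPS replicate 4 (0.11) and high without CS replicate 2 (0.29).

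No gene passed among 36 genes of glucose and glycogen metabolism or 13 of bile acid metabolism. The glucose list had as many genes higher as lower, 18 each, with a median of 0.01 and differences from -0.52 to 0.90. Its brightest probes were those of GAPDH, a glycolytic enzyme (0.24 ± 0.11), and SLC37A4, the glucose-6-phosphate carrier (-0.01 ± 0.11, log2 difference ± SE). In the bile acid list, 3 genes had a higher mean with RPS and the median was -0.08. CYP7A1, the rate-limiting enzyme of bile acid synthesis, read 11.70, 10.04, 9.48 and 11.62 on CS and 12.90, 12.39, 10.07 and 11.54 on RPS. The ranges overlapped and the log2 difference was 1.02 ± 0.70 (SE, adjusted p = 0.726). The uptake carrier SLC10A1 (0.14 ± 0.37) and the peroxisomal oxidase ACOX2 (-0.02 ± 0.22), its brightest members, did not pass.

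Few secreted proteins passed both thresholds. SERPINA7, the thyroxine-binding globulin of plasma, was the only 1 of 25 plasma carriers and inhibitors to pass, and it fell. It read 13.83, 14.20, 14.42 and 14.13 on CS and 13.28, 13.29, 13.76 and 13.52 on RPS. The diets did not overlap and the fall was 1.6-fold (log2 -0.68 ± 0.17 SE, adjusted p = 0.345). Of the 25, 19 had a lower mean with RPS and the median was -0.10. The list's per-array median did not overlap between diets, at 0.06 to 0.12 on CS and -0.12 to 0.03 on RPS arrays. In the coagulation list of 25 genes, only F2R, the thrombin receptor, passed, with a rise of 1.67-fold (log2 0.74 ± 0.29 SE, adjusted p = 0.520) and p up to 0.0923 when 1 array was left out. Under normexp it was at 0.58 and did not pass. F2R is a receptor of the cell surface and not a plasma clotting factor.

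Complement genes had a lower mean with RPS in 24 of 32 cases, with a median of -0.17, and none passed. Their brightest probes, those of CFB (factor B of the alternative pathway) and C1R (a protease of the first component), differed by -0.08 ± 0.10 and -0.09 ± 0.12 (log2 difference ± SE). Apolipoproteins (19 genes, median -0.16) and the list of hepatic hormones and insulin-like growth factor binding proteins (21 genes, median -0.19) had no gene past both thresholds. APOC3 and APOA2, both of very low- and high-density lipoproteins, differed by 0.09 ± 0.10 and 0.06 ± 0.11. LECT2, a hepatokine, differed by -0.50 ± 0.21 (adjusted p = 0.557), and IGFBP2 differed by -0.22 ± 0.37.

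The acute phase list showed large differences between pigs of 1 diet. None of its 20 genes passed and the median was 0.03, although single differences ranged from -1.77 to 1.88. HP (haptoglobin, which binds free haemoglobin) was at 19.26 to 19.32 on all 8 arrays, at the top of the scale, where quantile normalization gives the brightest probes the same few values, so a difference there could not be measured. ITIH4, an inhibitor subunit induced in pig acute phase responses, differed by 0.03 ± 0.26 (log2 difference ± SE). CRP (C-reactive protein) read 14.67, 16.90, 14.59 and 13.90 on CS and 15.28, 17.26, 16.05 and 14.72 on RPS. The list's per-array median was highest in replicate 2 of either diet, at 0.31 on CS and 0.52 on RPS, and lowest in replicate 4 of either diet, at -0.33 and -0.26.

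Among phase 1 detoxification enzymes, 2 of 40 genes fell and none rose, with a median of 0.02. Both are cytochromes P450 of subfamily 2C, a family of similar sequence, so their signals may be shared between copies. CYP2C32 read 15.31, 15.75, 16.05 and 15.85 on CS and 14.55, 14.55, 15.48 and 14.99 on RPS. RPS replicate 3 overlapped the CS pigs, and the fall was 1.79-fold (log2 -0.84 ± 0.24 SE, adjusted p = 0.406). CYP2C49 read 14.41, 14.76, 15.11 and 14.73 on CS and 13.70, 13.65, 14.69 and 13.79 on RPS, with the same pig high, and fell 1.73-fold (log2 -0.79 ± 0.25 SE, adjusted p = 0.425). CYP2C42 (-1.05 ± 1.08) and CYP2B22 (1.04 ± 0.55) had larger log2 differences and did not pass.

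Among 16 conjugation (phase 2) genes, 2 rose and none fell, with a median of 0.16. SULT1A3, a phenol sulfotransferase whose close copies may share its signal, read 15.41, 15.04, 13.54 and 15.07 on CS and 16.46, 16.43, 16.45 and 15.10 on RPS. The first 3 RPS pigs lay above all CS pigs and the fourth within their range, and the rise was 2.54-fold (log2 1.35 ± 0.46 SE, adjusted p = 0.441). GSTA1, a glutathione transferase abundant in hepatocytes, read 15.52, 16.47, 15.67 and 16.61 on CS and 17.29, 17.11, 16.41 and 16.77 on RPS and rose 1.77-fold (log2 0.82 ± 0.30 SE, adjusted p = 0.469), with p up to 0.0604 when 1 array was left out. NNMT belongs to this list too, and at its brighter probe its log2 difference of 1.5 did not pass.

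Of 34 genes of oxidative defence and metal handling, GPX3 rose and MT3 fell, with a median of 0.01. GPX3, the secreted glutathione peroxidase, rose 1.56-fold (log2 0.64 ± 0.24 SE, adjusted p = 0.493), and MT3, annotated as metallothionein-III but of a family of near-identical small proteins, fell 2.39-fold (log2 -1.25 ± 0.49 SE, adjusted p = 0.513). Both lost the call without any of 6 arrays, with p up to 0.0731 and 0.0790. MT3 read 12.40, 11.07, 12.65 and 13.47 on CS and 10.83, 10.85, 10.89 and 12 on RPS, so that 3 RPS pigs lay together below all CS pigs. None of 24 xenobiotic regulators and transporters passed (median -0.07). The hepatocyte factor CEBPA differed by -0.04 ± 0.17 (log2 difference ± SE).

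In the stress list, HSPB1 (a small heat shock protein) rose 1.83-fold among 20 genes (log2 0.87 ± 0.36 SE, adjusted p = 0.532), with p up to 0.105 when 1 array was left out. The mitochondrial chaperones HSPD1 and HSPE1 did not overlap between diets. HSPD1 read 14.24, 14.27, 14.40 and 14.20 on CS and 15.04, 15.21, 14.71 and 14.40 on RPS at its brightest probe, where its log2 difference of 0.56 ± 0.18 (SE, adjusted p = 0.422) was under the fold threshold. HSPE1 differed by 0.50 ± 0.14 (SE, adjusted p = 0.382). None of 7 clock genes passed (median 0.36), and the brightest, NFIL3 and RORA, differed by 0.10 ± 0.26 and -0.02 ± 0.16.

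Interferon-stimulated genes had a higher mean with RPS in 35 of 36 cases, with a median of 0.62, yet none passed both thresholds. The list's per-array median was -0.09, -0.54, -0.09 and -0.47 on CS and -0.59, -0.30, 1.71 and 0.67 on RPS. The signal was thus high in RPS replicates 3 and 4 and within or below the CS range in RPS replicates 1 and 2. RPS replicate 3 held the highest value of 32 of the 36 genes. OAS2, an antiviral oligoadenylate synthetase, read 14.02, 13.24, 13.73 and 13.72 on CS and 13.17, 13.46, 16.72 and 14.94 on RPS (log2 0.89 ± 0.70 SE, adjusted p = 0.763).

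ISG15, a ubiquitin-like modifier, read 12.70, 11.82, 12.71 and 10.90 on CS and 11.13, 11.16, 16.47 and 14.11 on RPS, the same 2 pigs being high. MX1, a GTPase that blocks viral replication, read 13.14, 12.98, 14.20 and 11.86 on CS and 12.59, 13.40, 15.78 and 15.13 on RPS. The brightest member, ISG12(A), differed by 0.16 ± 1.10 (SE), a difference that turned to -0.69 without RPS replicate 3. Without that array the list's median was 0.20, and leaving out any other array gave 0.51 to 0.91. STAT2, a transcription factor of the interferon pathway, was the only member whose diets did not overlap (log2 0.35 ± 0.12 SE, adjusted p = 0.447), and it was under 1.5-fold.

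**Figure D4:**
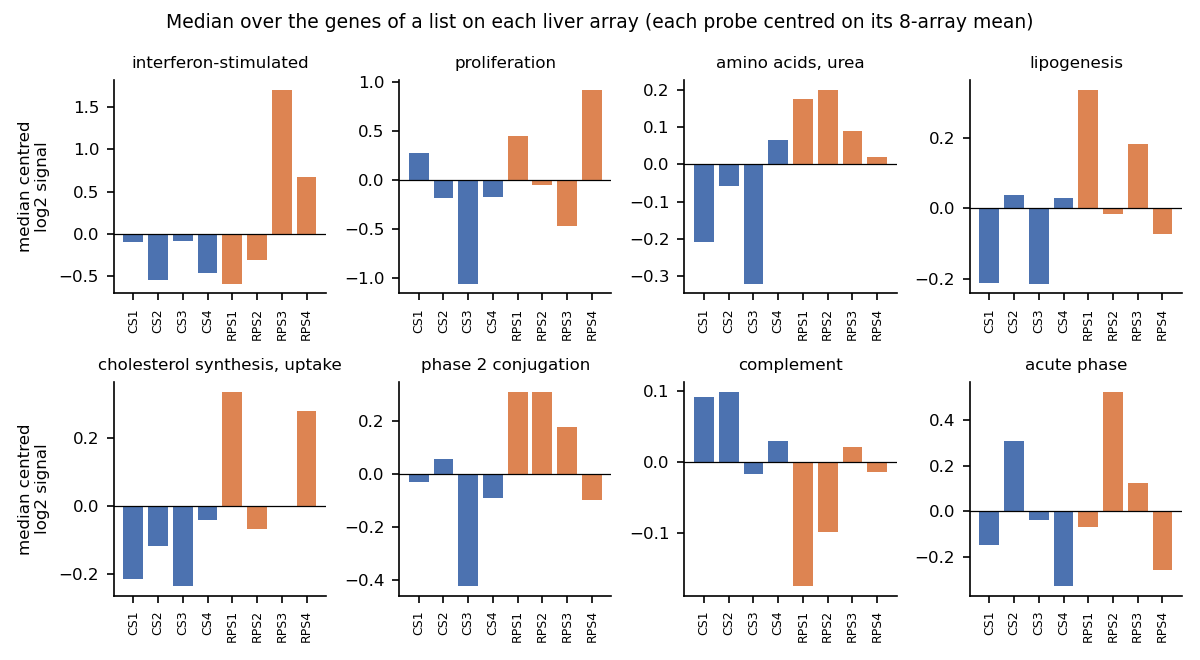
Median over the genes of 8 lists on each of the 8 liver arrays, as log2 signal after each probe was centred on its mean over the arrays (blue bars CS, orange bars RPS, in order of replicate number). The scale differs between panels. Interferon-stimulated genes stand at 1.71 in RPS replicate 3 and 0.67 in RPS replicate 4 alone, and proliferation genes range from -1.05 in CS replicate 3 to 0.92 in RPS replicate 4.

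Antigen presentation genes had a per-array median of 0.09, -0.13, -0.06 and 0.15 on CS and -0.34, -0.38, 0.44 and 0.08 on RPS arrays. RPS replicate 3 held the highest value of 17 of the 29, the pig in which most interferon-stimulated genes were highest. TLR7, the endosomal receptor for single-stranded RNA, was the only 1 of 52 genes of innate sensing and cytokines to pass. It read 7.46, 7.35, 7.42 and 6.0 on CS and 5.62, 6.14, 5.63 and 6.11 on RPS, so that 3 CS pigs lay together above all others and CS replicate 4 lay with the RPS pigs. The fall was 2.27-fold (log2 -1.19 ± 0.33 SE, adjusted p = 0.388), and under normexp it was -0.60 and passed. Of the 29 antigen presentation genes, SLA-DRB1, a class II major histocompatibility chain of a polymorphic family, fell 1.51-fold (log2 -0.59 ± 0.21 SE, adjusted p = 0.459), which is just past the fold threshold. It lost the call without any of 5 arrays, with log2 differences of -0.58 to -0.43, under 75th percentile scaling (-0.57) and with all 16 arrays in the fit. The medians of both lists were 0.08 and -0.04.

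Proliferation genes had a higher mean with RPS in 10 of 11 cases, with a median of 0.61, and none passed. RPS replicate 4 held the highest value of 10 of the 11 and CS replicate 3 the lowest of 7. TOP2A, a topoisomerase of dividing cells, read 6.07, 4.78, 4.19 and 5.40 on CS and 6.58, 5.74, 3.96 and 7.86 on RPS. Without RPS replicate 4 the list's median was 0.18, and without CS replicate 3 it was 0.36. The brightest 2 members, MKI67 and AURKB, differed by -0.09 ± 0.18 and 0.01 ± 0.21 (log2 difference ± SE). T and NK cell markers had a per-array median of 1.09 in RPS replicate 4 and of at most 0.12 on every other array, and that pig held the highest value of 8 of the 15. Their part in the proliferation values was not tested.

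Markers of other liver cells moved in places. The 10 cell type lists, which include those of hepatocytes and of intestine and pancreas, held 82 marker genes with a kept probe. Of these, 7 fell (8.54%) and none rose, while 1.63% of all genes fell and 1.65% rose. The lists were written with earlier results of these data known, so these shares describe the lists and test nothing. Of the 7, CD34, COL1A2, HEMGN and CA1 lost the call when certain single arrays were left out, and SOX9 was kept through the CS arrays alone. Endothelial markers had a lower mean with RPS in 9 of 9 cases, with a median of -0.24. CD34, a sialomucin of endothelial and progenitor cells, fell 1.55-fold (log2 -0.63 ± 0.19 SE, adjusted p = 0.421), but was under the fold threshold without CS replicate 1 (-0.49) or RPS replicate 2 (-0.54), and under normexp (-0.35). PECAM1, an endothelial adhesion molecule, did not overlap between diets at its brightest probe (-0.31 ± 0.11), but its 4 kept probes ranged from -0.31 to 0.04 and none passed. CDH5 differed by -0.30 ± 0.17. The summed endothelial signal was 12652 to 12871 on CS and 10090 to 11910 on RPS arrays, with no overlap.

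Bile duct markers gave 2 falls of 7. SOX9, a regulator of duct cells, was among them and dim, at 4.70 to 4.98 on CS and 2.34 to 4.25 on RPS, where replicate 3 was not well above background. Its log2 difference of -1.12 became -0.66 without that array and -0.17 under normexp, where it did not pass. The keratin KRT18, which hepatocytes also make, differed the other way (0.46 ± 0.20). The list's summed signal of 8296.8 to 10414 on CS and 9141.6 to 13310 on RPS overlapped, but most of that sum was KRT18, at 12.46 to 13.49. The list's per-array median was 0.05, 0.26, 0.41 and 0.05 on CS and 0.11, -0.02, -0.69 and 0.19 on RPS, and RPS replicate 3 was lowest for 5 of the 7 genes. S100A2 and WFDC2, which epithelia express, fell beside these markers, whose part in their falls was not tested.

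Neutrophil markers had a lower mean with RPS in 7 of 8 cases, with a median of -0.60. NPG4, a protegrin (a neutrophil antimicrobial peptide of a family of near-identical genes), read 10.84, 9.69, 10.81 and 8.01 on CS and 6.85, 7.6, 8.82 and 7.85 on RPS. CS replicate 4 lay within the RPS range, and the fall was 4.16-fold (log2 -2.06 ± 0.66 SE, adjusted p = 0.423). The neutrophil protease ELANE differed by 0.21 ± 0.18. The list's summed signal was 2149.5 to 4288.4 on CS and 1768.6 to 2383.3 on RPS arrays, and all its 8 members with a kept probe enter that sum. Its part in the falls of NPG4 and MMP9 was not tested.

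Of 3 erythroid markers, all lower with RPS (median -0.71), HEMGN fell 1.64-fold (log2 -0.71 ± 0.24 SE, adjusted p = 0.445), and without CS replicate 4 it was at -0.55, under the fold threshold, as it was under normexp (-0.38). Among 11 stellate cell and fibroblast markers, 7 had a lower and 4 a higher mean with RPS (median -0.15). COL1A2, a chain of type I collagen, fell 1.6-fold (log2 -0.67 ± 0.29 SE, adjusted p = 0.554), with p up to 0.120 when 1 array was left out. RGS5, of the same list, differed the other way at its brightest probe (1.19 ± 0.53 SE) and did not pass there. Kupffer cell markers (9 genes, median -0.10), T and NK cell markers (15, median 0.19) and B and plasma cell markers (3, with differences from -0.10 to 0.09) had no gene past both thresholds. Their brightest members were CD5L (0.17 ± 0.14), C1QB (-0.19 ± 0.11), GNLY (-0.06 ± 0.17), CCL5 (0.70 ± 0.49), XBP1 (-0.00 ± 0.25) and PAX5 (-0.10 ± 0.25), as log2 difference ± SE.

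The list of intestinal and pancreatic markers was used to look for tissue carried over. CA1, a carbonic anhydrase of colon and red cells, fell 1.73-fold at its brightest probe (log2 -0.79 ± 0.30 SE, adjusted p = 0.505), with p up to 0.0779 when 1 array was left out, and was at -0.24 under normexp. AMY2, pancreatic amylase, read 9.92 to 10.43 on CS and 9.79 to 10.51 on RPS, while the elastase CELA2A rose as given above. The part of any carried-over tissue in that rise was not tested. The brightest MUC13 probe stood at 19.14 to 19.32 on all 8 arrays, and the other three MUC13 probes read between 4.56 and 11.34, so the probes named for this gene do not read together.

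Agreement between probes of a gene was examined next. Of 2491 genes with at least 2 kept probes, 1566 (62.9%) had all probes on the same side of 0, and the median spread between the highest and lowest log2 difference of a gene was 0.15. Where 1 or more probes passed both thresholds, 102 of 119 genes had all probes on the same side, all probes passed in 31, and in 0 genes did probes pass in opposite directions. Kept probes with identical 60 bases give a measure of error. Among 137 such pairs the median difference between the log2 fold changes was 0.05, the 90th percentile was 0.21 and the largest was 0.55.

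Among the genes named above that passed and had several kept probes, 36 in number, 35 had all probes on the same side of 0 and in 21 all probes passed. In 17 of those 21 no 2 probes shared 20 bases or more. All 5 CPT1A probes fell, by 1.14 to 1.46 on the log2 scale, and no 2 of them shared more than 10 bases in a row. At A_72_P479795, the CPT1A probe with the largest fall, the log2 difference was -0.54 under normexp and did not pass. All 4 GOT1 probes rose, by 0.83 to 0.92. Both CSAD probes rose (0.99 and 1.13), as did both ARG2 probes (1.22 and 1.25), and all 3 CYP2C49 probes fell, at -0.79 to -0.74. The 3 NPG4 probes fell at -2.06 to -1.96, but any 2 of them share at least 20 bases and are not independent. HSPD1 had 20 probes, all with a higher mean with RPS and an unadjusted p below 0.05, at 0.47 to 0.87, of which 5 passed the fold threshold. Of the 190 pairs of these probes, 19 share at least 20 bases, so the probes are not all independent.

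**Figure D5:**
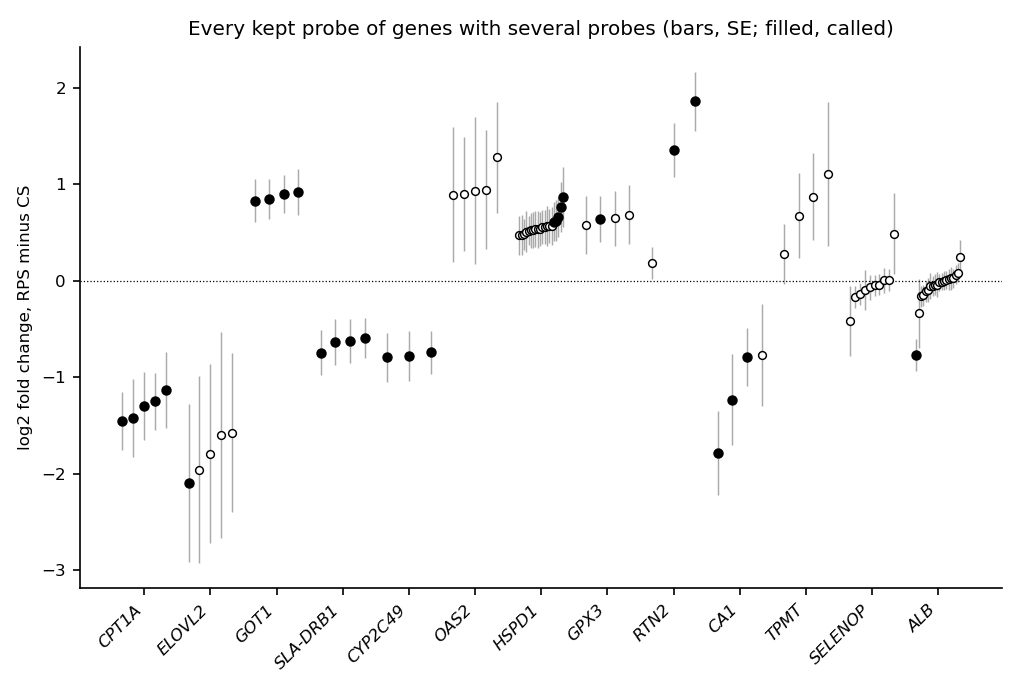
Log2 fold change, RPS minus CS, with SE, at every kept probe of 13 genes with several probes, ordered by value within a gene. Filled dots passed both thresholds and open dots did not. All CPT1A, GOT1, SLA-DRB1 and CYP2C49 probes passed, whereas 1 of 5 ELOVL2 probes, 2 of 3 RTN2 probes and 1 of 20 ALB probes did.

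Probes disagreed for some genes. RTN2 had 3 kept probes, whose first 30 bases are shown because 1 of them opens with a run of G.
RTN2 A_72_P378623: tttgcatggggcccaggggaggcctgagct
RTN2 A_72_P727813: tatgtgggattggtgaccaatcagttgagc
RTN2 A_72_P765449: ggggggggccttttaaaatttccctggggg
The first read 7.93 to 9.23 on CS and 9.54 to 10.05 on RPS and rose by 1.35 ± 0.28 (SE) on the log2 scale. The second was well above background on the RPS arrays only (4.20 to 4.32) and was at least 1.91-fold higher with RPS. The third, which is rich in G, differed by 0.19 ± 0.17 (SE) and did not pass. Of the 20 ALB probes, 19 lay between -0.34 and 0.24, and A_72_P517168, the dimmest of them at 12.35 to 13.70, fell by 0.76 ± 0.17 (SE) on the log2 scale. For CA1 the range was -1.78 to -0.77 over 4 probes, and its 2 probes of identical sequence read -1.78 and -1.23. SELENOP, a selenium carrier, ranged from -0.42 to 0.49 over 10 probes, where single arrays (CS replicate 2 at 1 probe, RPS replicate 3 at another) stood apart. All 4 TPMT probes, of a drug-methylating enzyme, were higher with RPS at 0.28 to 1.11, and none passed. For 23 AMY2 probes the range was -0.34 to 0.36. INSIG1, GSTA1 and WFDC2 each had 2 kept probes, of which 1 passed. The other differed by log2 0.39, 0.54 and -0.35.

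Some probes were measured on 1 diet only. The background call was passed by 18 probes on all 4 CS arrays and no RPS array, and by 13 on all 4 RPS arrays and no CS array. Those with a gene name were SCG3 (a secretory granule protein, at least 2.24-fold lower with RPS), CCL24 (an eosinophil chemokine, at least 1.71-fold lower), LOC100158001 (at least 1.92-fold lower, with a log2 difference of -1.35 that was -0.86 without RPS replicate 3), RTN2 as above, RFPL4B (at least 1.6-fold higher), NLGN3 (a synaptic adhesion protein) and STMN2 (a neuronal microtubule protein). CCL24 read 5.44, 3.57, 4.4 and 3.42 on CS and 1.12, 2.37, 2.81 and 2.67 on RPS. SCG3 read 5.33, 4.34, 4.52 and 4.24 on CS and 0.87, 2.59, 3.1 and 2.83 on RPS, and a second SCG3 probe, above background on 1 RPS array, fell by 2.04 on the log2 scale. All of these signals were close to background. A second NLGN3 probe of identical sequence passed the background call on all 8 arrays and differed by log2 0.43 ± 0.21 (SE), and the other three STMN2 probes, above background on 3 or 4 CS arrays, lay between -0.08 and 0.38, so no bound is given for either gene. Under normexp none of the named probes passed, with log2 differences from -0.25 (SCG3) to 0.19 (RTN2). The offset of that correction shrinks differences this close to background, so it could not decide whether these probes differ.

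The diet effect in liver was set against that in colonic mucosa, measured on the other 8 arrays of the series with the same probes. In limma's test of the difference between the 2 effects, 0 of 26461 probes had an adjusted p below 0.05 (smallest 0.162) and 1167 had an unadjusted p below 0.05. Of the 917 liver probes past both thresholds, 255 had an unadjusted p below 0.05 in that test. The 917 were picked by their liver difference, which also enters that test, so a raised share among them carries no information. Of the 917, 590 differed in the same direction in colon, and 67 also passed both thresholds there in that direction. The same shares over all kept probes were not taken, so these counts do not show a diet effect shared between the tissues. For NNMT the difference was 2.07 in liver and -0.30 in colon (adjusted p of the difference between tissues = 0.873), and for CSAD it was 1.13 and -0.02 (adjusted p = 0.794). TLR7 was lower with RPS in both tissues, at -1.19 in liver and -1.80 in colon (adjusted p = 1). No effect was therefore shown to be particular to the liver.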

How the data were processed

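Total RNA of 16 pig tissue samples was hybridized to 1-colour arrays, and the 8 liver arrays were used here. Per the labels, scanner intensity came from Agilent Feature Extraction 10.7. The authors deposited log2 values after quantile normalization in GeneSpring, and a check against the scanner intensity of each liver array gave Spearman correlations of 0.999992 to 1. The deposited scanner intensity and background flags were used for the filter and for 3 alternative normalizations. Of these, normexp used an offset of 50. Tests used limma 3.58.1 in R 4.3.3 (lmFit and eBayes, no covariate), with thresholds of p below 0.05 and fold change above 1.5, and Benjamini-Hochberg adjustment over all 26461 kept probes. Single values also had a two-sided exact permutation test over the 70 divisions of 8 arrays. The procedure was tested on simulated data. Precision is limited by 4 arrays a diet.

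A gene symbol was found for 14273 of 43603 probes: 10038 by current symbol, 465 by an older name, 2549 as LOC symbols, 995 through an accession, and 226 kept as the file names them. The table of names (assembly Sscrofa11.1) gave no coordinates, since no genome build is stated for the array. Genes were named by rule: the 12 largest rises and falls among called probes with a symbol and signal on all 8 arrays, up to 4 called genes or else the brightest 2 of each list, the 3 smallest p, genes measured on 1 diet only, and the listed genes with the most or the least alike probes. FASN, SCD, SREBF1, FGF21, CYP7A1, CRP, ARG1, NAGS, CTH, HGD, HSD17B7, CYP2C42, CYP2B22, ISG15, MX1, STAT2, TOP2A, HSPE1, ASS1 and OTC were named after their values were seen. The lists and genes were chosen with earlier results of these data known. The pigs of a diet are separate animals. Alternatives changed the normalization, background correction, filter, test, fold threshold, arrays in the fit and probe summary, and left out each array in turn. The authors' own gene lists were not used. Some genes that the rule names are not reported here.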

Additional observations from a re-analysis of the deposited data

Results flagged for a closer look

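In 24 of 256 groups of 4 arrays (9.38%), 1 array stood apart from the other three by Dixon's test at its 95% critical value, taking the gap to its nearest neighbour over the range of the group. Chance gives about 1 in 20 such groups. Genes and lists share arrays, so these groups are not independent.

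Among the genes, the RPS arrays held 12 of the cases. RPS replicate 4 stood apart for SULT1A3 (gap over range 0.980, at 15.10 against 16.43 to 16.46), MT3 (0.950), MMP9 (0.974), ACOX2 (0.836), KRT18 (0.886) and the unnamed probe A_72_P006701 (0.940). RPS replicate 2 stood low for ELOVL2 (0.837) and LECT2 (0.920) and high for HEMGN (0.877). RPS replicate 3 stood high for CYP2C49 (0.864) and low for SOX9 (0.886), and RPS replicate 1 stood high for GAPDH (0.894).

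On the CS side, replicate 4 stood apart for RGS5 (0.885), for TLR7 (0.928, at 6.0 against 7.35 to 7.46) and for the RTN2 probe A_72_P727813 (0.932). CS replicate 1 stood low for CPT1A at A_72_P479795 (0.918) and CD5L (0.850) and high for CSAD (0.887).

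Among the lists, CS replicate 3 stood high for apolipoproteins (0.890) and clock genes (0.846). CS replicate 2 stood apart for plasma carriers (0.863), coagulation (0.861) and T and NK cell markers (0.843). RPS replicate 1 stood low for clock genes (0.838).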

How the results depend on the processing

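Of the 57 named probes past both thresholds, 0 changed direction under the alternatives run and 18 passed under every one. The other 39 lost the call at least once, 19 of them under normexp background correction, 21 above 2-fold and 21 with 1 array left out. Normexp was run with an offset of 50, which shrinks the differences of dim probes, so a dim probe can lose its call there through the offset alone. The count of 917 probes became 230 under normexp, 1562 with no filter on signal, 221 above 2-fold and 176 with probes averaged by gene (of 5338 genes), and 887 to 1306 with 1 array left out, the highest without RPS replicate 4. The share higher with RPS became 53.5% under normexp and 36.2% above 2-fold, and was 47.6% to 54.8% with 1 array left out. The count with an adjusted p below 0.05 became 3 under 75th percentile scaling, 1 with no filter and 3 with all 16 arrays in the fit, and was 0 to 1 with 1 array left out. The t-test of the methods gave 631 probes and 0 after adjustment. That t-test also ended the calls of CITED1, RGS5, CLEC18A, ELOVL2, ALOX12, MT3, WFDC2, SCD5, INSIG1, F2R, GSTA1, GPX3, HSPB1, COL1A2, SOX9 and CA1. All 16 arrays in the fit ended those of ALOX12, WFDC2, FABP1, F2R, CYP2C32, GSTA1, GPX3, SLA-DRB1, CA1 and STMN2, no filter those of RGS5, CLEC18A, WFDC2, SCD5, HSPB1 and COL1A2, and averaging by gene those of ELOVL2, WFDC2, FABP1, INSIG1, GPX3, HEMGN and STMN2. The causes were not tested.

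The direction turned only for named genes that had not passed. Under 75th percentile scaling the log2 difference was 0.021 for SLC37A4, 0.017 for ACOX2, 0.0088 for CEBPA, 0.0013 for RORA, -0.0041 for TF, 0.0062 for GNLY and 0.023 for XBP1. Under normexp it was 0.0027 for CEBPA and -0.096 for AURKB. With probes averaged by gene it was 0.035 for CEBPA, -0.068 for ALB, -0.20 for TF, 0.031 for XBP1 and 0.32 for MUC13. With 1 array left out the ranges were -0.059 to 0.039 for SLC37A4, -0.20 to 0.086 for ACOX2, -0.27 to 0.35 for SLC10A1, -0.12 to 0.18 for ITIH4, -0.47 to 0.10 for IGFBP2, -0.13 to 0.087 for CEBPA, -0.69 to 0.92 for ISG12(A), -0.091 to 0.29 for NFIL3, -0.15 to 0.10 for RORA, -0.20 to 0.031 for MKI67, -0.14 to 0.14 for AURKB, -0.036 to 0.049 for TF, -0.20 to 0.060 for GNLY, -0.15 to 0.18 for XBP1 and -0.27 to 0.084 for PAX5.

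Diets share replicate numbers, but over all kept probes same-numbered pigs did not deviate together (correlations of 0.063, 0.098, -0.14 and -0.048). The acute phase list did follow the numbers, with replicate 2 highest and replicate 4 lowest on both diets. The study's methods treat the replicate as a block, and the labels do not say whether the array numbers are those blocks. The numbers were not taken as pairs. With the replicate block, 941 probes passed both thresholds, 797 of them shared with the fit without it, and 0 had an adjusted p below 0.05. Among named probes RGS5, ALOX12, SCD5, F2R, SLA-DRB1 and COL1A2 lost the call with it. The test of liver against colon also gave 0 with the block. A block for slide was not run, since each slide held 1 diet. Probes near background limit the dim genes: 655 of the 917 probes passed the background call on all 8 arrays.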

Other observations

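Some values stood out that belong to no comparison of the diets, and these genes were chosen after their values were seen. HAMP (hepcidin, the hormone that limits iron uptake) read 8.55 in RPS replicate 1 and 16.08 to 16.92 in the other 7 pigs, and its log2 difference between diets was -1.77 ± 1.71 (SE, n = 4 a diet, adjusted p = 0.820 by limma). APCS (serum amyloid P, a pentraxin) read 15.34, 16.94, 14.21 and 11.93 on CS and 15.88, 16.71, 17.09 and 16.26 on RPS, with CS replicate 4 the lowest pig. The 3 MUC13 probes that read alike were at 9.58 to 11.34 in RPS replicates 3 and 4 and 4.56 to 6.10 in RPS replicates 1 and 2.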
